A study of Mus musculus with 12 samples.

Results

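The genes described here are the Toll-like receptor genes Tlr1, Tlr2, Tlr3, Tlr4, Tlr5, Tlr6, Tlr7 and Tlr8, the co-receptor gene Cd14 and the adaptor gene Myd88, 10 of the 18193 mouse genes with a probe set of 1 symbol on the array. Each gene is given from 1 probe set, chosen by its mean over the 12 arrays, the highest of the gene's probe sets. Of these 10 genes, 7 passed the filter on low values, which kept 11602 genes in all. The list itself was selected on 1 measured value of these arrays, that of Tlr1 in combined minus radiation, so that comparison is described for these genes without a test.

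The study asked how simvastatin, an inhibitor of HMG-CoA reductase given to lower cholesterol, alters lung injury caused by radiation in mice. Total RNA from whole lung of wild-type mice was hybridised to Affymetrix arrays, 12 in all and 3 in each of 4 groups. Combined mice received 25 Gy and simvastatin, radiation mice 25 Gy alone, simvastatin mice the drug alone and control mice vehicle. Lungs were taken 6 weeks after irradiation, and simvastatin was injected intraperitoneally at 10 mg/kg, 3 times a week, before and after irradiation. The groups come from the sample titles, since another label calls the tissue on all 12 arrays that of a control animal. The labels give an age of 8 to 12 weeks for the combined, radiation and simvastatin groups and 8 to 10 weeks for the control group, so age and treatment cannot be told apart. No label says that each array came from 1 animal, and p-values therefore measure the spread between these arrays, which may be technical.

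Toll-like receptors are membrane proteins that detect molecules of microbes and of damaged cells. TLR1 and TLR6 each pair with TLR2 to bind bacterial lipopeptides, TLR4 with its partner MD-2 (gene Ly96) binds lipopolysaccharide handed over by CD14, TLR5 binds flagellin, and TLR3, TLR7 and TLR8 sense nucleic acids inside endosomes. All of them except TLR3 can signal through the adaptor MYD88 to NF-kB and inflammatory genes. In lung they are found on alveolar macrophages, neutrophils, dendritic cells, endothelium and epithelium.

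Some arrays went against their labels, and this bears on each result below. The mean of 5 p53 target genes that respond to irradiation (Cdkn1a, Eda2r, Mdm2, Ccng1 and Phlda3) was 9.17 on combined 3, against 11.02 and 11.03 on the other combined arrays. It was 11.3 on simvastatin 2 and 11.1 on control 3, near the radiation arrays at 11.2 to 11.3, while the other simvastatin and control arrays lay at 8.95 to 9.32. Combined 3, simvastatin 1 and simvastatin 3 were nearly identical, with an SD of the log2 difference of 0.111 to 0.118 over 10342 bright probe sets, against 0.336 for the next closest pair. Simvastatin 1 and simvastatin 3 were averaged and counted as 1 sample, which left 11 samples, and results are also given without combined 3. Control 3 and radiation 1 carried Y-linked expression (Eif2s3y at 10.2 and 10.4) and the other 10 arrays did not. Control 1 had the highest mean of the T and NK cell list (11.1, against 5.81 to 8.04 on the others) and the lowest of the alveolar type 2 list (13.5, against 13.9 to 14.4). The thymocyte genes Rag1 and Dntt were at 14.42 and 13.1 on control 1 and at 11.05 and 9.35 on combined 1. On the other arrays Rag1 was at 2.09 to 2.33 and Dntt at 2.14 to 2.24. Lung identity was thus present on all 12 arrays, while the skeletal muscle list ran between 3.62 and 12.3. It was at 3.62 to 4.13 on simvastatin arrays and 9.68 to 11.3 on control arrays. On combined arrays it was at 4.02 to 12.3 and on radiation arrays at 3.87 to 11.1. A squamous epithelium list was at 2.95 to 3.19 on simvastatin arrays and 5.26 to 11.8 on control arrays. In simvastatin minus control the level of these lists and the drug thus cannot be told apart.

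The promoters of Tlr1, Tlr6, Tlr2 and Myd88 are shown because Tlr1 is the gene whose level separated the arrays by simvastatin, TLR2 and TLR6 are its receptor partner and its closest relative, and MYD88 carries their signal. Each sequence runs 5′ to 3′ from 250 bases before to 50 bases after the RefSeq start in GRCm38.p6, and all lie on the minus strand. Capitals mark matches, on either strand, to the PU.1 core GAGGAA, the interferon response element (GAAA, any 2 bases, GAAA) or the NF-kB consensus.
Tlr1, chr5:64933509-64933808: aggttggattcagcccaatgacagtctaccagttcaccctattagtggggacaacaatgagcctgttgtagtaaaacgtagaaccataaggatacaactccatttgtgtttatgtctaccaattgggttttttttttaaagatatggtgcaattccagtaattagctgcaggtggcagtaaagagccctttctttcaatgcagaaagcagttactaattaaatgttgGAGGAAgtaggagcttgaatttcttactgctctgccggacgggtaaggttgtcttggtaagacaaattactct
Tlr1, downstream start, chr5:64932650-64932949: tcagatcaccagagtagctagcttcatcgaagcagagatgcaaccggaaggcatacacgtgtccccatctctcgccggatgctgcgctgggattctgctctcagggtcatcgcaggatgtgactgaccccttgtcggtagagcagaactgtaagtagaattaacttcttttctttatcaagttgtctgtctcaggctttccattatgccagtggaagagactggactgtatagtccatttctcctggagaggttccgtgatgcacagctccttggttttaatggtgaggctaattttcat
Tlr6, chr5:64959117-64959416: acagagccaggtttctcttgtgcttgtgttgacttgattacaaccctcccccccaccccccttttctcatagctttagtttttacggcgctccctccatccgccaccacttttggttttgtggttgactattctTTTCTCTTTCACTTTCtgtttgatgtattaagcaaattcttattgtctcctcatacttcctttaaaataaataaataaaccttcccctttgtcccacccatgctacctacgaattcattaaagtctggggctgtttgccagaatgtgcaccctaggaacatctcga
Tlr2, chr3:83841559-83841858: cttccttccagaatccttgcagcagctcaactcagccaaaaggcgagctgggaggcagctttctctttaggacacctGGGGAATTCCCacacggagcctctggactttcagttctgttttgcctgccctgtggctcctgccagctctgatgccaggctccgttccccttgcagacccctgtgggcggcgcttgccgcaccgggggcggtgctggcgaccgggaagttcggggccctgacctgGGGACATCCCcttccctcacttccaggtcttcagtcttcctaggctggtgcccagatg
Myd88, chr9:119339969-119340268: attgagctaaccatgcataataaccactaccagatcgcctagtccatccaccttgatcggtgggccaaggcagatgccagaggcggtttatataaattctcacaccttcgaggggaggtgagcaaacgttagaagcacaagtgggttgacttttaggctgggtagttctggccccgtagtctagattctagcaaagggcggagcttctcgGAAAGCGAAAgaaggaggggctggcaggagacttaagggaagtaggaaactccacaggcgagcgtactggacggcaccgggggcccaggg
The upstream Tlr1 promoter held 1 PU.1 core, 23 bases before the start, a motif present in 28.28% of 32851 promoters, and the downstream one held no match. PU.1 is a transcription factor of myeloid and B cells. The Tlr6 promoter shown held a pair of overlapping interferon response elements, the other Tlr6 entry, at an upstream start, held no match, and the Myd88 promoter held 1 such element, against 3.44% of all promoters. The Tlr2 promoter held NF-kB matches at 2 places, one of them made of overlapping matches, and 8.46% of all promoters held at least 1. The sterol regulatory element TCACNCCAC, present in 1.24% of all promoters, was found in none of the 9 entries of the 7 genes with a promoter in the table. A match is a run of letters in this window and shows nothing about binding.

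Tlr1, the lipopeptide receptor that works with TLR2, was higher on every array labelled with simvastatin than on every array without it. Its log2 intensity was 8.13, 7.90 and 7.52 on the combined arrays and 6.57, 6.74 and 6.96 on the radiation arrays. On the simvastatin arrays it was 7.67, 7.81 and 7.52, and on the control arrays 7.22, 6.91 and 6.95. The 6 arrays with the drug thus covered 7.52 to 8.13 and the 6 without it 6.57 to 7.22, with no overlap. The means were 7.85 ± 0.31 in combined lungs and 6.76 ± 0.20 in radiation lungs (SD, n = 3 each), and 7.70 ± 0.15 in simvastatin lungs (SD, n = 2) and 7.03 ± 0.17 in control lungs (SD, n = 3).

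Combined minus radiation was the contrast in which Tlr1 had been noticed, and its values there are a description. The difference was 1.09 ± 0.23 (log2, SE), or 2.13-fold, and it ranked first of 11602 genes by p. In that contrast 17.2% of all genes had groups that did not overlap, 4.46% had an unadjusted p under 0.05 and 0% passed the adjusted threshold of 0.05. Without combined 3 the difference was 1.26, and with each array centred on its own median it was 0.73.

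**Figure D1:**
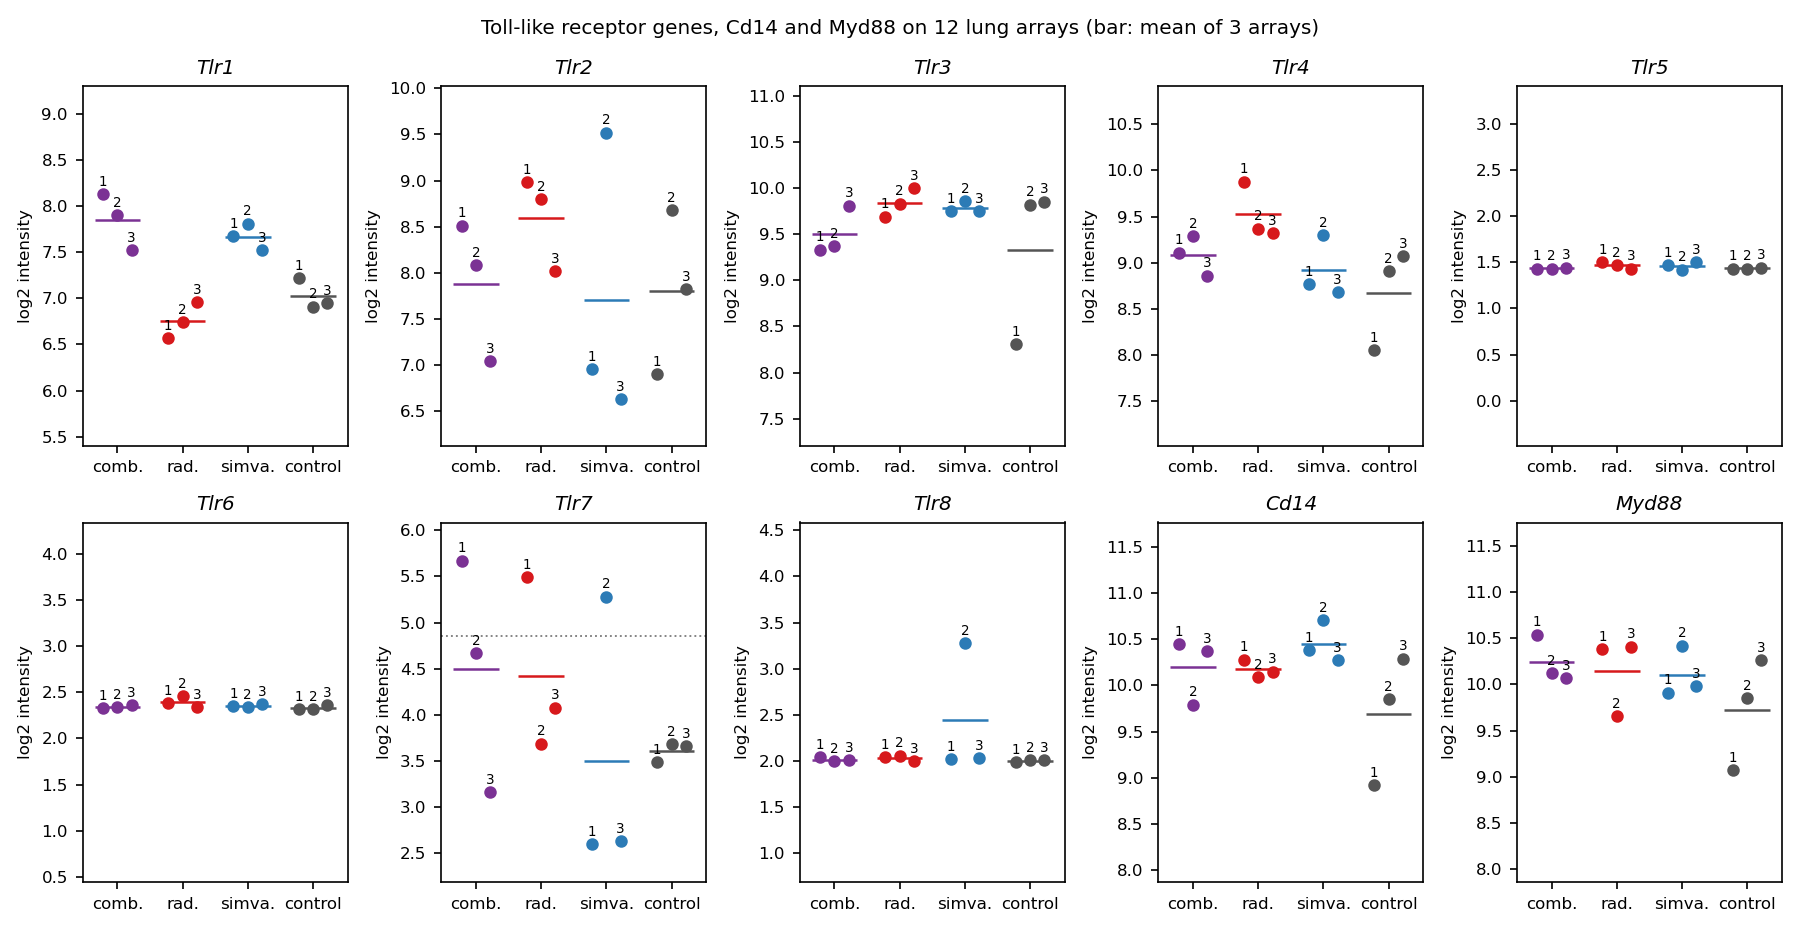
Log2 intensity (vertical axis) of each of the 10 genes on the 12 arrays, by group; points are arrays, numbered by replicate, bars are means of 3 arrays, and the dotted line for Tlr7 is the filter at 4.85. Tlr1 lies between 7.52 and 8.13 on the 6 simvastatin-treated arrays and between 6.57 and 7.22 on the other 6, while Tlr5 and Tlr6 are flat near the bottom of the scale.

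For simvastatin minus control the group means came from arrays outside the contrast in which Tlr1 had been noticed. Combined 3 was, however, nearly identical to simvastatin 1 and simvastatin 3. The SE and p came from a variance estimate shared by all 4 groups. They thus rest in part on the combined and radiation arrays and are no independent support. In simvastatin minus control Tlr1 was 0.67 ± 0.25 higher (log2, SE), or 1.59-fold, and its groups did not overlap. It had the 69th lowest p of 11602 genes. It did not pass the test (limma, unadjusted p = 0.0256, Benjamini-Hochberg adjusted p = 0.99). In this comparison 0% of genes passed the adjusted threshold, 1.84% had an unadjusted p under 0.05 and 11.3% had groups that did not overlap. Without the 3 arrays whose p53 targets went against the label the Tlr1 difference was 0.53 and its adjusted p was 0.608, and over 24 other settings it lay between 0.53 and 0.77.

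Combined against control shares its combined arrays with the contrast that singled out Tlr1, and its controls with the other 2 comparisons against control. Tlr1 was 0.82 ± 0.23 higher there (log2, SE; limma, unadjusted p = 0.00517, adjusted p = 0.995) and the groups did not overlap. The background was 0% of genes past the adjusted threshold, 2.82% at an unadjusted p under 0.05 and 6.54% not overlapping. Without the drug, Tlr1 was −0.27 ± 0.23 in radiation minus control (limma, adjusted p = 0.760), with overlapping groups, and 0.0049 after median centring. The interaction of radiation with simvastatin was 0.42 ± 0.34 for Tlr1 (limma, adjusted p = 0.882). In it 0% of genes passed the adjusted threshold and 3.25% had an unadjusted p under 0.05. The interaction contains combined minus radiation, the value that singled out Tlr1, and radiation minus control uses the same radiation arrays. Neither is thus independent of that choice. Whether the simvastatin difference of Tlr1 depends on irradiation cannot be decided from them.

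Setting all arrays with simvastatin against all without it was added after the values had been seen, and is a description. It includes the combined and radiation arrays on which Tlr1 had been singled out, so its rank and separation here are no independent support. Combined 3 was also nearly identical to simvastatin 1 and simvastatin 3. Tlr1 differed by 0.88 ± 0.17 (log2, SE), or 1.84-fold, and ranked first of 11602 genes by p. Over all genes, 42 (0.362%) had no overlap between the simvastatin-treated and the untreated samples, and of these 5 (0.0431%) were higher with the drug, namely Tlr1, Ppm1m, Dalrd3, Malt1 and Cox18. Malt1 encodes a signalling protease of lymphocytes downstream of antigen receptors and is a member of no list used here. Tlr1 was among the 2 higher genes after median centring and the 9 after quantile normalization. Leaving out arrays can only add genes to such a list, and the higher genes were 8 without combined 3 and 114 without the 3 arrays whose p53 targets went against the label.

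The mean of the B cell list, of which 8 of 10 genes passed the filter, was 7.71 to 8.94 on combined arrays and 6.81 to 7.53 on radiation arrays. It was 7.81 to 8.30 on simvastatin arrays and 7.41 to 8.49 on control arrays. Combined and radiation arrays thus did not overlap for this list in the same direction as Tlr1, and simvastatin and control arrays overlapped. The B cell list was not alone in this. The white fat list was also higher, at 10.2 to 11.7 on combined and 8.91 to 9.54 on radiation arrays. The alveolar type 1, alveolar type 2 and p53 target lists did not overlap either and were lower on combined arrays. Of all genes, 17.2% had groups that did not overlap in this contrast. The B cell transcription factor Pax5 was at 1.90 to 1.96 on every array. The part of B cells in the Tlr1 values was not tested. In whole lung, fewer cells of a type and less RNA per cell cannot be told apart.

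Tlr2, the partner of TLR1 and TLR6, varied widely between replicates, and no group stood apart. It was 8.51, 8.08 and 7.04 on the combined arrays and 8.98, 8.8 and 8.02 on the radiation arrays. It was 6.96, 9.52 and 6.63 on the simvastatin arrays and 6.90, 8.68 and 7.82 on the control arrays. The groups overlapped in all 4 comparisons. The differences were 0.80 ± 0.71 in radiation minus control, 0.36 ± 0.80 in simvastatin minus control and 0.08 ± 0.71 in combined minus control (log2, SE), and none passed the test. Radiation minus control was 0.35 without control 1, simvastatin minus control turned to −1.01 without simvastatin 2 and to −0.0885 without control 1, and combined minus control turned to −0.37 without control 1. In combined minus radiation Tlr2 was −0.72 ± 0.71, and −0.31 without combined 3.

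Tlr6, the other partner of TLR2, was at 2.32 to 2.46 on all 12 arrays, below the filter at 4.85, and gave no measurable difference. Tlr5 was at 1.42 to 1.5, within the lowest 1% of values on each array. Neither value shows that the gene was not expressed, since a probe set can fail to report its transcript.

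Tlr4, the lipopolysaccharide receptor, was higher on each radiation array than on each control array. It was 9.88, 9.37 and 9.32 on the radiation arrays, against 8.05, 8.91 and 9.07 on the control arrays. The means were 9.52 ± 0.31 in radiation lungs and 8.68 ± 0.55 in control lungs (SD, n = 3 each). The difference of 0.85 ± 0.30 (log2, SE), or 1.80-fold, did not pass the test (limma, unadjusted p = 0.0194, adjusted p = 0.751). In radiation minus control 0% of genes passed the adjusted threshold, 5.17% had an unadjusted p under 0.05 and 6.90% had groups that did not overlap. Without control 1, the lowest array, the difference was 0.53, and without the 3 arrays whose p53 targets went against the label it was 1.04 (adjusted p = 0.203).

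With both treatments Tlr4 was 9.11, 9.29 and 8.86 on the combined arrays, each below all 3 radiation arrays. That difference was −0.44 ± 0.30 (log2, SE), given as a description, and −0.26 without radiation 1. On the simvastatin arrays Tlr4 was 8.77, 9.30 and 8.68, which overlapped with control. Combined minus control was 0.41 ± 0.30 and simvastatin minus control 0.34 ± 0.34, and neither passed the test (limma, adjusted p = 0.995 and 0.99). Without control 1 they were 0.0961 and 0.0210.

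Other probe sets of Tlr4 gave the same order for radiation against control in part. Probe set 1418163_at was 8.28, 8.12 and 7.91 on the radiation arrays, against 5.73, 7.37 and 7.29 on the control arrays, with no overlap. Probe set 1442827_at was 7.36, 7.03 and 5.54 on the radiation arrays, against 5.59, 5.89 and 6.83 on the control arrays, and these overlapped. Probe set 1430695_at stayed at 2.45 to 2.75 on all arrays.

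**Figure D2:**
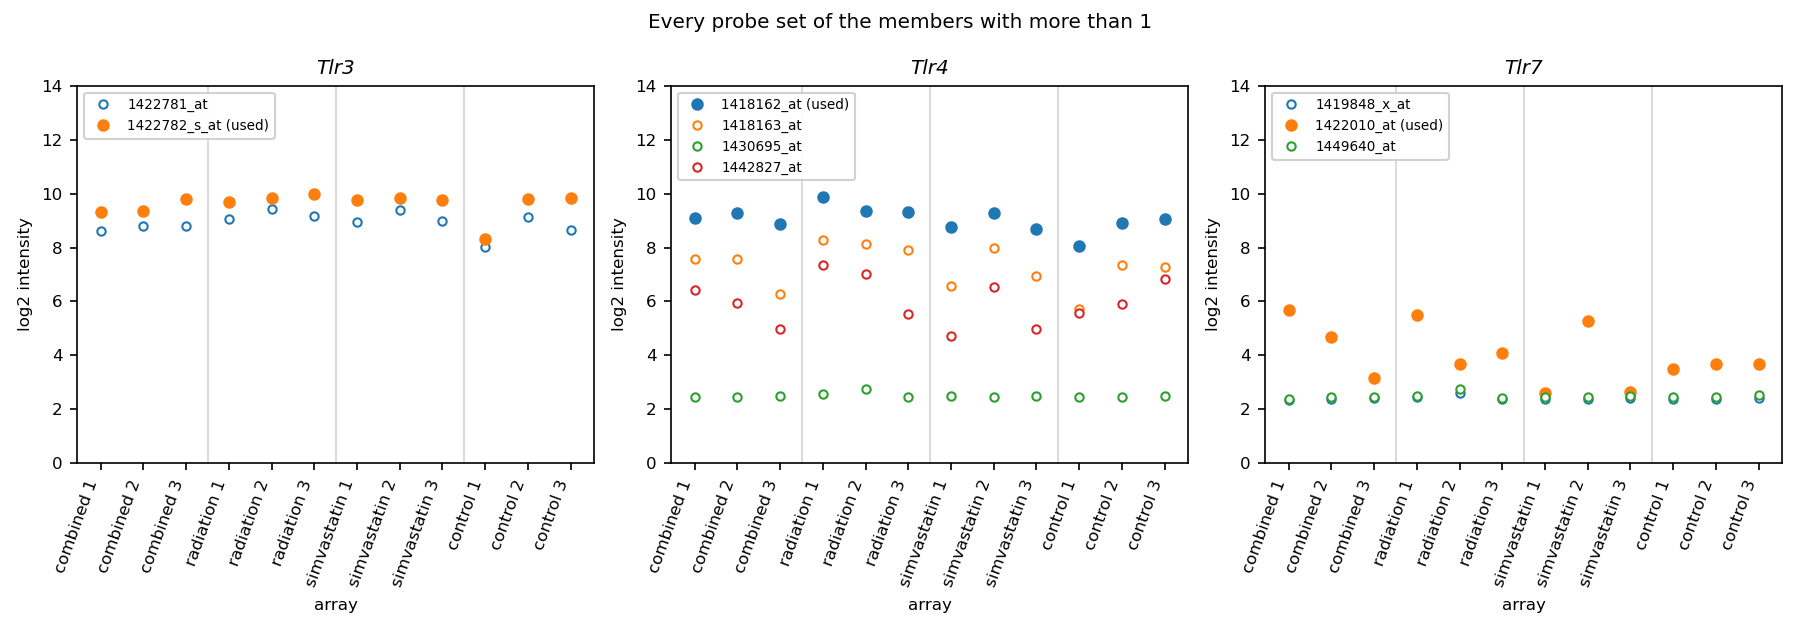
Log2 intensity (vertical axis) of each probe set of Tlr3, Tlr4 and Tlr7 on the 12 arrays (horizontal axis); filled points are the probe set used and open points the others. The probe sets of Tlr3 are lowest on control 1 but order control 3 differently. In contrast, 1 probe set of Tlr4 and 2 of Tlr7 are flat near 2.5.

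Cd14, the co-receptor that delivers lipopolysaccharide to TLR4, was at 10.45, 9.79 and 10.37 on the combined arrays and 10.28, 10.09 and 10.15 on the radiation arrays. It was 10.38, 10.71 and 10.27 on the simvastatin arrays, against 8.92, 9.85 and 10.29 on the control arrays. With simvastatin 1 and simvastatin 3 averaged, the simvastatin and control groups did not overlap, but simvastatin 3 alone lay just below control 3. The means were 10.52 ± 0.27 in simvastatin lungs (SD, n = 2) and 9.69 ± 0.70 in control lungs (SD, n = 3). The difference was 0.83 ± 0.36 (log2, SE), or 1.78-fold, and did not pass the test (limma, unadjusted p = 0.0475, adjusted p = 0.99). Without control 1 it was 0.45.

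Cd14 was 0.49 ± 0.33 in radiation minus control and 0.52 ± 0.33 in combined minus control (log2, SE), and the groups overlapped in both. Without control 1 these were 0.10 and 0.13. In combined minus radiation it was 0.03 ± 0.33, with no steady sign across the alternatives. Of the accessory genes of lipopolysaccharide sensing, Lbp, the serum protein that loads CD14, was 10.91, 11.01 and 10.68 on the radiation arrays, against 8.95, 10.12 and 10.61 on the control arrays, with no overlap. Its difference was 0.97 ± 0.35 (log2, SE; limma, unadjusted p = 0.0204, adjusted p = 0.751) and was 0.50 without control 1. Ly96, which encodes MD-2, was 8.37, 8.19 and 7.34 on the radiation arrays, against 6.79, 7.55 and 7.68 on the control arrays, and these overlapped. Its difference was 0.63 ± 0.46, and 0.35 without control 1.

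Tlr3, the endosomal receptor for double-stranded RNA, was nearly flat apart from control 1 on the probe set used. It was 9.33, 9.37 and 9.81 on the combined arrays and 9.69, 9.83 and 10.00 on the radiation arrays. It was 9.75, 9.86 and 9.75 on the simvastatin arrays and 8.31, 9.82 and 9.85 on the control arrays. Radiation minus control was 0.51 ± 0.37 (log2, SE; limma, adjusted p = 0.751) and 0.0050 without control 1. Simvastatin minus control was 0.48 and combined minus control 0.18, and without control 1 these were −0.0279 and −0.33. The second probe set, 1422781_at, was likewise lowest on control 1, at 8.01 against 8.60 to 9.45 on the other arrays. It placed control 3 near its low end, at 8.65, where the probe set used gave 9.85. Its radiation arrays were at 9.05, 9.45 and 9.18, against 9.15 on control 2 and 8.65 on control 3.

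Tlr7, a receptor for single-stranded RNA, passed the filter through only 3 arrays. These were combined 1 at 5.67, radiation 1 at 5.49 and simvastatin 2 at 5.28, and combined 2 lay just below the filter at 4.67. The other arrays were at 3.16 (combined 3), 3.69 and 4.08 (radiation), 2.60 and 2.63 (simvastatin) and 3.49, 3.68 and 3.66 (control). The 3 arrays above the filter came from 3 different groups, and differences between groups ranged from 0.08 ± 0.82 in combined minus radiation to 0.89 ± 0.82 in combined minus control (log2, SE). The second of these was 0.30 without combined 1, and radiation minus control, at 0.81, was 0.27 without radiation 1. The radiation and control groups were separated by 3.69 against 3.68, both below the filter. The other 2 probe sets stayed at 2.35 to 2.75.

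The same 3 arrays had the highest means of the neutrophil list, of which 12 of 14 genes were measured, at 9.74 on combined 1, 10.9 on radiation 1 and 10.9 on simvastatin 2. Combined 2 followed at 9.59, and the other arrays lay at 6.43 to 8.67. By group the list covered 7.04 to 9.74 on combined arrays, 6.48 to 10.9 on radiation arrays, 6.97 to 10.9 on simvastatin arrays and 6.43 to 8.49 on control arrays. The macrophage list, with 18 of 20 genes measured, covered 9.35 to 10.4 on combined arrays, 9.29 to 9.90 on radiation arrays, 9.28 to 9.82 on simvastatin arrays and 9.26 to 9.65 on control arrays. The part of neutrophils and macrophages in the Tlr2 and Tlr7 values was not tested. Tlr8, a relative of TLR7, was at 1.99 to 2.06 on 11 arrays and at 3.28 on simvastatin 2, all below the filter.

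Myd88, the adaptor shared by most of these receptors, was 10.54, 10.12 and 10.07 on the combined arrays and 10.38, 9.66 and 10.41 on the radiation arrays. It was 9.91, 10.42 and 9.98 on the simvastatin arrays and 9.07, 9.85 and 10.26 on the control arrays. Control 1 was again the lowest array and the groups overlapped in all 4 comparisons. The differences against control were 0.42 ± 0.33 for radiation, 0.45 ± 0.36 for simvastatin and 0.52 ± 0.33 for combined treatment (log2, SE), and none passed the test. Without control 1 they were 0.0945 for radiation, 0.126 for simvastatin and 0.186 for combined treatment. Combined minus radiation was 0.09 ± 0.33, and its sign turned under some alternatives.

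**Figure D3:**
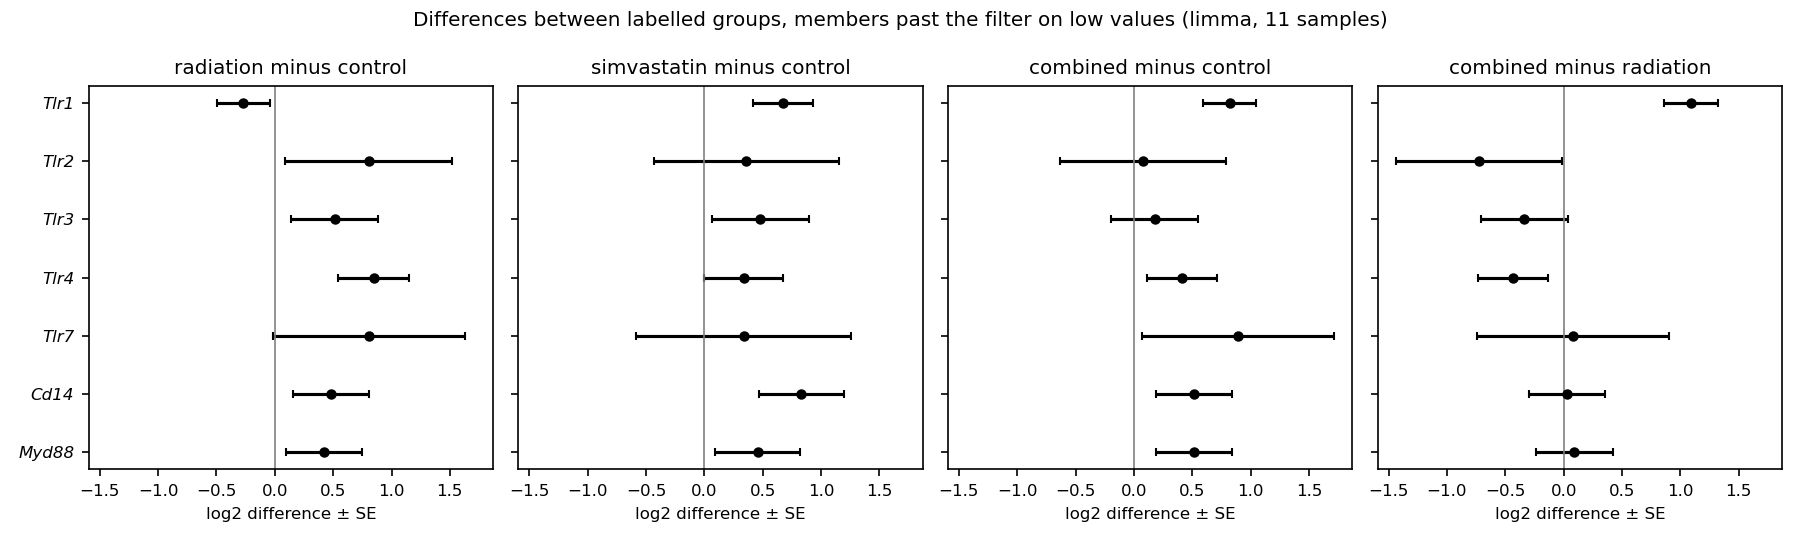
Log2 differences (horizontal axis, ± SE from limma) of the 7 genes past the filter in the 4 comparisons, over 11 samples. Tlr1 lies above 0 in the 3 comparisons that add simvastatin and at −0.27 in radiation minus control, and no difference passed an adjusted p of 0.05 where it was tested.

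Of the 7 genes past the filter, 2 had groups that did not overlap in radiation minus control (Tlr4 and Tlr7, beside 6.90% of all genes) and 2 in combined minus radiation (Tlr1 higher and Tlr4 lower, beside 17.2%). In simvastatin minus control there were 2 (Tlr1 and Cd14, beside 11.3%), and in combined minus control 1 (Tlr1, beside 6.54%). Passing the filter depends on the same arrays, so these counts are no support for a shift of the list. The median difference of the 7 genes was 0.51 in radiation minus control, beside 0.08 over all 11602 genes, 0.45 in simvastatin minus control, beside −0.0023, and 0.52 in combined minus control, beside 0.0039. These 3 medians rested on control 1, and without it they were 0.10, 0.13 and 0.13, beside 0.0154, −0.0747 and −0.0612 over all genes. In combined minus radiation the median was 0.03, beside −0.09 over all genes.

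The genes did not vary as one group over the 11 samples. Pearson's r between Cd14 and Myd88 was 0.83, between Cd14 and Tlr3 0.79 and between Tlr2 and Tlr7 0.75. Tlr1 had r between −0.24 and 0.24 with each of the other 6. These samples share the low values of control 1, and the correlations are a description.

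The genes most like each member over the same 11 samples, by Pearson's r, also differed between members. For Tlr1 they were Cd72, a B cell surface protein (r = 0.86), Pomt1 (0.86) and Cox18 (0.86). For Tlr2 they were Ctsc, the lysosomal protease cathepsin C (0.99), Cd300c2 (0.96) and Chil3, a chitinase-like protein of alveolar macrophages (0.95). For Tlr7 they were Rab32, Fcgr3 and Csf2rb (0.95 to 0.93), of which Fcgr3 is an Fc receptor of myeloid cells.

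Tlr4 was most like Pxdc1, Bcar3 and Dcun1d3 (0.97 to 0.95), and Tlr3 was most like Trpc1, Msn and F11r (0.98 each). The Tlr3 values fell to 0.85 once the 2 samples farthest from the median were left out. Myd88 was most like Casp4, the inflammatory caspase that senses lipopolysaccharide in the cytosol (0.98), Litaf (0.96) and Clec4d (0.96). Cd14 was most like Sorl1, Hacd4 and Dmxl2 (0.93 to 0.92), and r with Sorl1 was 0.68 without the 2 farthest samples.

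Of the other genes of the pathway that were listed, 74 had a probe set and 57 passed the filter. None passed the adjusted threshold in any comparison, and an unadjusted p under 0.05 was reached by 3 of them in radiation minus control, beside 5.17% of all genes, and by 2 in combined minus radiation, beside 4.46%. It was reached by 1 in simvastatin minus control, beside 1.84%, and by 1 in combined minus control, beside 2.82%. In radiation minus control 38 of the 57 were above 0 and 19 below, with a median of 0.11 beside 0.08 over all genes, of which 60.4% were above 0. Groups did not overlap for 7 of them (12.3%), beside 6.90% of all genes. In combined minus radiation 28 were above 0 and 29 below, with 37.4% of all genes above 0. Groups did not overlap for 8 of them (14%, beside 17.2% of all genes in either direction), all lower with simvastatin. The share of all genes that were lower without overlap was not computed, so this direction cannot be called particular to the pathway.

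All 5 trafficking genes were above 0 in radiation minus control, beside 60.4% of all genes. So were all 4 genes of the co-receptor and lipopolysaccharide-binding list and all 4 IL-1 family receptors that use MYD88. The inducible targets had 7 of 9 above 0, the inhibitors 7 of 10 and the adaptors 2 of 3. Fewer were above 0 in other lists, with 5 of 13 signalling kinases and ligases and 3 of 8 transcription factors. Hsp90b1, the chaperone gp96 that folds Toll-like receptors, had the lowest p of the pathway. It was 14.49, 14.62 and 14.64 on the radiation arrays, against 14.06, 14.22 and 14.47 on the control arrays, with no overlap. The difference was 0.33 ± 0.12 (log2, SE; limma, adjusted p = 0.751), and 0.24 without control 1. Lcn2, an iron-binding protein induced by this pathway, was 14.42, 14.16 and 12.90 on the radiation arrays, against 10.62, 12.55 and 12.78 on the control arrays. Its difference was 1.84 ± 0.78 (log2, SE; limma, adjusted p = 0.751), and 1.16 without control 1.

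In combined minus radiation the lowest p-values belonged to Traf6, the ubiquitin ligase that acts after MYD88, to Il1rap, a co-receptor of interleukin-1 that uses MYD88, and to Cnpy3, a chaperone of Toll-like receptors. Traf6 was 6.96, 6.75 and 6.96 on the combined arrays, against 7.50, 7.34 and 7.23 on the radiation arrays. Il1rap was 7.53, 8.09 and 7.89 on the combined arrays, against 8.97, 8.69 and 8.19 on the radiation arrays. Both genes were lower on each combined array than on each radiation array, by −0.47 ± 0.20 and −0.78 ± 0.33 (log2, SE; limma, adjusted p = 0.835 for each), and so was Cnpy3, by −0.44 ± 0.21 (adjusted p = 0.835).

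The adaptor Tirap, which bridges TLR2 and TLR4 to MYD88, was 8.75, 8.84 and 8.41 on the combined arrays and 9.46, 9.17 and 9.23 on the radiation arrays, against 7.67, 9.02 and 8.98 on the control arrays. It was 0.73 ± 0.36 in radiation minus control (log2, SE; limma, adjusted p = 0.751). Irak3, an inhibitor of this signalling, was 0.72 ± 0.36 in radiation minus control and 0.72 ± 0.41 in simvastatin minus control, with adjusted p = 0.751 and 0.99 in limma. Without control 1 the radiation minus control difference was 0.28 for Tirap and 0.38 for Irak3, and Irak3 in simvastatin minus control was 0.28 without simvastatin 2. In simvastatin minus control the lowest p-values were those of the inhibitor of NF-kB Nfkbia (0.35 ± 0.15), the kinase-binding protein Tab1 (−0.71 ± 0.34) and the phosphatase Dusp1 (0.60 ± 0.30). Without simvastatin 2 Nfkbia was 0.22 and Tab1 −0.28, and without control 3 Dusp1 was 0.31.

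In combined minus control they were those of the stress-induced repressor Atf3 (1.76 ± 0.76), of Unc93b1, which carries the nucleic acid receptors to endosomes (0.51 ± 0.24), and of Hsp90b1 (0.24 ± 0.12). Atf3 was 0.87 and Hsp90b1 0.14 without control 1, and Unc93b1 was 0.31 without combined 1. None of these 6 differences passed the test. Among the inducible targets of the pathway 9 of 20 passed the filter, and Tnf, at 2.42 to 2.78, did not. Of the other Toll-like receptors, Tlr9 was at 2.08 to 2.20, below the filter. Tlr13, a receptor for bacterial ribosomal RNA that is named here after its values were seen, was at 9.02, 8.14 and 6.41 on the combined arrays and 9.20, 7.78 and 8.07 on the radiation arrays. It was at 6.6, 9.44 and 6.48 on the simvastatin arrays and 5.12, 6.99 and 8.86 on the control arrays.

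**Figure D4:**
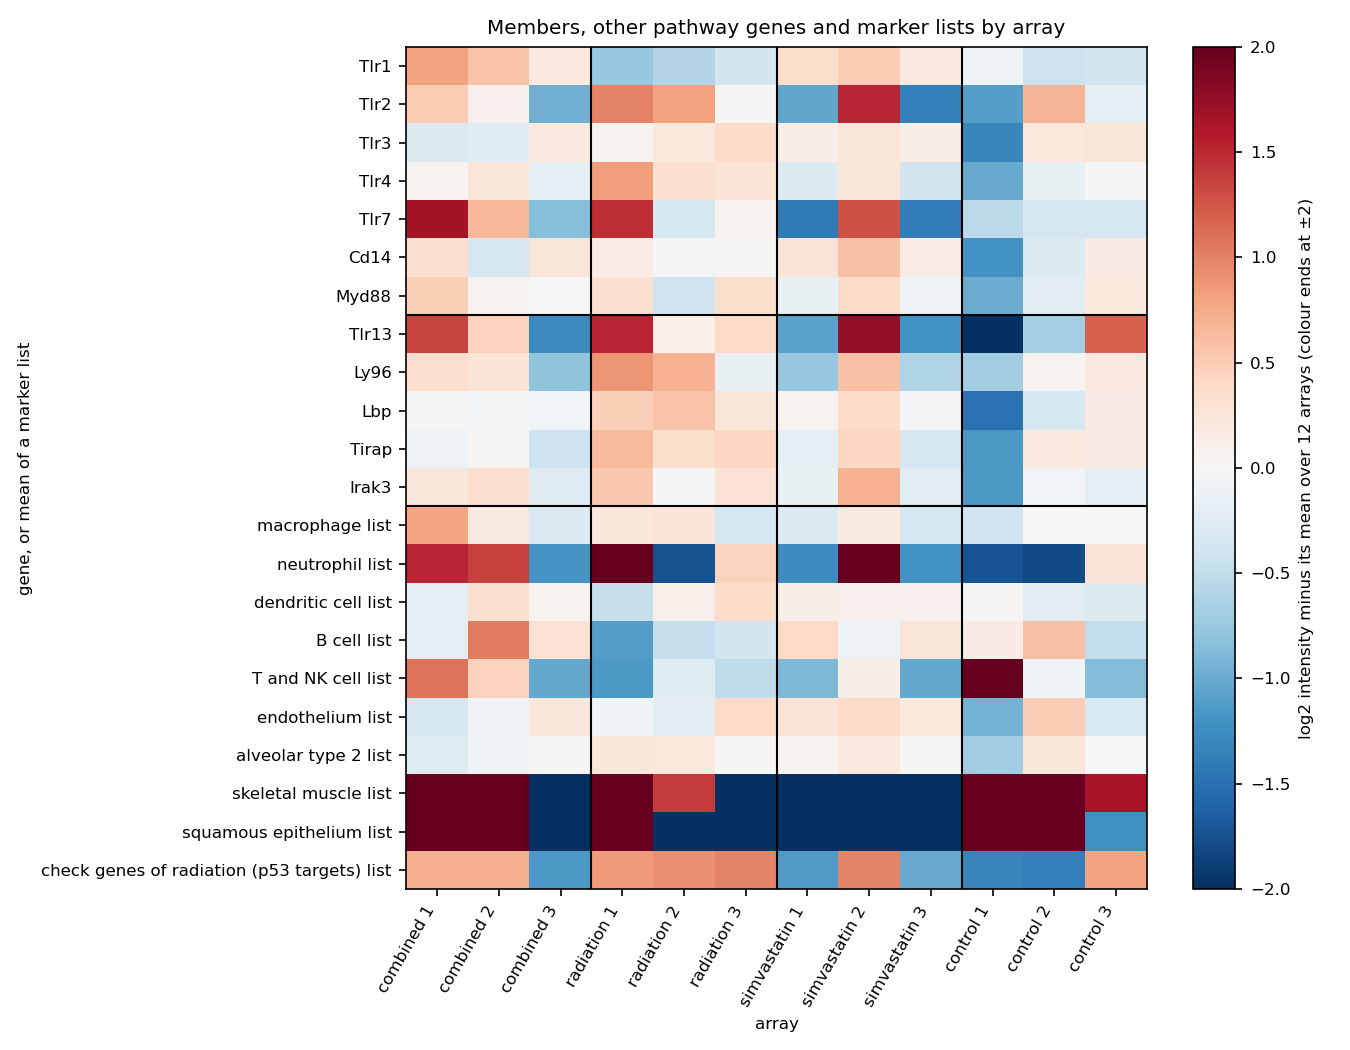
Log2 intensity minus its own mean over 12 arrays (colour, ending at ±2) for the 7 genes past the filter, 5 other pathway genes and the means of marker lists (rows) on each array (columns). Tlr1 is above its mean on the 6 arrays with simvastatin, control 1 is low for Tlr3, Tlr4, Cd14 and Myd88, and combined 1, radiation 1 and simvastatin 2 are high for Tlr7, Tlr13 and the neutrophil list.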

How the data were processed

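Total RNA of 12 mouse lung samples was measured on Affymetrix arrays. The deposited values were taken as log2 intensity from their range (0.817 to 16.3), and per the submitters' processing notes the authors used MAS5 and GCRMA, with no version or role given. Array medians were 4.41 to 5.12, and the number of arrays limits the precision. Of 45101 probe sets, 64 controls were left out, 34945 had 1 gene symbol, 932 several and the rest none, and 34741 matched RefSeq by Entrez number. Each gene was taken from its brightest probe set on average, and genes above log2 4.85 (the median of all values) on at least 3 of 12 arrays were kept. Group means were fitted over 11 samples with limma 3.58.1 (trend, two-sided, Benjamini-Hochberg over 11602 genes) in R 4.3.3, tested on simulated data.

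The members and the gene lists were chosen with earlier results of these data known. All 10 members were named, with Ly96, Lbp, Tirap, Irak3, Tlr9 and Tnf, the 3 pathway genes of lowest p per comparison and, for each member past the filter, the 3 genes of highest Pearson r. Members below the filter have no such genes given, since their values hardly vary. Replicate numbers recur across groups, but of 18 same-numbered pairs only 8 had deviations correlated above 0.1 (range −0.259 to 0.408), so they do not pair the samples. Other scalings, filters, variance models and selections of arrays were run as alternatives.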

Additional observations from a re-analysis of the deposited data

Results flagged for a closer look

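Tlr3 differed in sign between the contrasts of simvastatin, with −0.34 in combined minus radiation and 0.48 in simvastatin minus control (log2). Tlr4 likewise was −0.44 in combined minus radiation and 0.34 in simvastatin minus control. Cd14 differed in sign between the contrasts of radiation, with −0.31 in combined minus simvastatin and 0.49 in radiation minus control. For Tlr3 and Tlr4 each combined sample lay below the radiation mean and each simvastatin sample above the control mean. For Cd14 each combined sample lay below the simvastatin mean and each radiation sample above the control mean. The interaction of radiation with simvastatin, which tests the difference itself, was −0.82 ± 0.55 for Tlr3, −0.77 ± 0.45 for Tlr4 and −0.80 ± 0.49 for Cd14 (log2, SE), and limma gave an adjusted p of 0.882 for each. Without control 1 these interactions were −0.31, −0.46 and −0.42. Without that array Tlr3 in simvastatin minus control was −0.0279, so that its signs no longer differed, Tlr4 there was 0.0210, and Cd14 in radiation minus control was 0.10.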

How the results depend on the processing

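Over 24 other settings the 0 genes called in each comparison changed as follows. Array weights gave 1241 genes in radiation minus control, 1172 in combined minus radiation and 43 in combined minus control. Leaving out the 3 arrays whose p53 targets went against the label gave 9 in radiation minus control and 2 in combined minus control, and leaving out the 2 arrays with Y-linked expression gave 1 in radiation minus control. Leaving out 1 array gave 0 to 1 genes, with 1 in radiation minus control, in combined minus control and in the interaction, each without control 3. Under array weights Tlr4 in radiation minus control (0.76, adjusted p = 0.0449) and Tlr1 in combined minus control (1.02, adjusted p = 0.0464) passed the threshold, as did Hsp90b1 (0.32, adjusted p = 0.0345) and Lbp (0.81, adjusted p = 0.0309) in radiation minus control and Traf6 (−0.55, adjusted p = 0.0401), Il1rap (−0.97, adjusted p = 0.0392) and Cnpy3 (−0.46, adjusted p = 0.0463) in combined minus radiation, all by limma. Tlr1 in combined minus control shares its combined arrays with the contrast that singled it out, so its pass is no independent support. The cause of these changes was not tested.

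Differences near 0 in combined minus radiation had no steady sign over the 24 settings, with Cd14 at −0.33 to 0.24 (17 of 24 as fitted), Tlr7 at −0.50 to 0.75 (19 of 24) and Myd88 at −0.27 to 0.22 (21 of 24). Directions of other differences also turned. Median centring, which put the all-gene median at 0.36 in radiation minus control and at −0.45 in combined minus radiation, gave 0.0049 for Tlr1 in radiation minus control, and −0.0066 for Tlr2 and −0.0013 for Ly96 in combined minus control. With 12 arrays as 12 samples, simvastatin minus control was −0.0956 for Tlr2, −0.106 for Tlr7 and −0.114 for Ly96, and the Tlr7 interaction was 0.187. A replicate block on the 12 arrays gave these same 4 values and changed the call of no comparison (0 genes). Without the 3 doubted arrays simvastatin minus control was −0.998 for Tlr2, −0.972 for Tlr7 and −0.366 for Ly96, the interactions were 0.690 for Tlr2 and 1.72 for Tlr7, and Irak3 in combined minus radiation was 0.0164, as it was without combined 3 alone. The Tlr7 interaction was 0.411 without combined 3 and 0.255 without the arrays with Y-linked expression. Array weights gave −0.385 for Tlr2, −0.0955 for Ly96 and −0.0665 for Tirap in simvastatin minus control, and −0.417 for Tlr2, −0.351 for Tlr3 and −0.213 for Tirap in combined minus control.

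Leaving out 1 array at a time, simvastatin minus control ranged from −1.01 to 0.80 for Tlr2, −0.0279 to 0.74 for Tlr3, −0.995 to 0.37 for Tlr7, −0.53 to 0.26 for Ly96 and −0.11 to 0.57 for Tirap. Combined minus control ranged from −0.37 to 0.52 for Tlr2, −0.33 to 0.44 for Tlr3, −0.19 to 0.45 for Ly96 and −0.33 to 0.34 for Tirap. The interaction ranged from −1.52 to 0.28 for Tlr2 and −0.84 to 1.08 for Tlr7, and Irak3 in combined minus radiation from −0.31 to 0.0164. Of 69 differences recomputed under each setting, those of Tlr1 kept their sign under all 24 in combined minus radiation, simvastatin minus control and combined minus control. Leaving out an array of neither group cannot move a difference, and leaving out combined 3 entered the 24 settings more than once. Part of this steadiness was thus fixed in advance. Combined minus radiation is also the contrast that singled out Tlr1. The differences of Tlr4 and Lbp in these comparisons kept their sign too, but not in a common direction. Both genes were below 0 in combined minus radiation and above 0 in the comparisons against control. With all arrays with simvastatin set against all without it, Tlr4 ranged from −0.29 to 0.14 and kept its sign under 17 of 24.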
